A study of Mus musculus with 8 samples.

Results

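The genes described here encode the constitutive proteasome. They are the 36 of 55492 genes in the deposited count table whose symbols are Psma, Psmb, Psmc or Psmd followed by a number, leaving out Psmb8, Psmb9 and Psmb10, which encode the catalytic subunits of the immunoproteasome. Of the 36, 16 belong to the core particle (Psma and Psmb) and 20 to the regulatory particle (Psmc and Psmd). The name pattern also takes in Psma8, an alpha subunit of the testis, Psmb11, a beta subunit of the thymus, and Psmd5, Psmd9 and Psmd10, which are assembly chaperones of the regulatory particle and not subunits of the finished complex.

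The proteasome degrades proteins that carry ubiquitin. Its core particle is a barrel of alpha rings outside and beta rings inside, and the subunits encoded by Psmb5, Psmb6 and Psmb7 cut the protein chain. The regulatory particle caps the barrel: its base holds a ring of ATPases (Psmc) that unfold the substrate, and its lid holds the enzyme that removes the ubiquitin chain. Transcription of subunit genes is known to be raised by NRF1, encoded by Nfe2l1, when proteasome activity is short, and in mouse cells given electrophiles the related factor NRF2 has been reported to raise some of them.

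PolyA RNA was sequenced from Yumm5.2, a mouse melanoma cell line whose strain label is C57B/6J, after 20 h with 4-OI (4 libraries) or with the reagent control DMSO (4 libraries). The series' design text speaks of permeable itaconate, and 4-OI is the usual short form of 4-octyl itaconate, an electrophilic ester of a metabolite made by activated macrophages. The sources used here do not state its dose. All libraries come from 1 line. The labels say that each condition was sequenced in 4 experiments but not whether these were separate cultures, so p-values measure the spread between these libraries only, and that spread may be technical.

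Total counts were 25664999 to 31185027 in the 4-OI libraries and 22962963 to 31361677 in the DMSO libraries. Melanocyte markers were near 0 apart from Mitf (9.98 CPM with 4-OI and 6.42 CPM with DMSO), with at most 0.191 CPM (counts scaled to library size) on average in either group for Sox10, Tyr, Tyrp1, Dct, Pmel and Mlana, so most defining markers of the melanocytic lineage were at or near 0. Markers of T cells, endothelium and keratinocytes summed to at most 0.283 CPM per cell type in any library, and macrophage markers to 1.47 to 2.23 CPM with 4-OI and 1.93 to 2.47 CPM with DMSO, with Adgre1 and Lyz2 at 0. Of the fibroblast markers Pdgfra was expressed (114 CPM with 4-OI and 107 CPM with DMSO), Dcn was low (0.680 CPM with 4-OI and 1.77 CPM with DMSO) and Lum was at 0. Of 4 markers of melanoma or neural crest, Axl (783 CPM with 4-OI and 898 CPM with DMSO) and Cdkn2a (346 CPM with 4-OI and 322 CPM with DMSO) were expressed. S100b and Ngfr had at most 0.104 CPM on average in either group. The part of these markers' cells in the results was not tested.

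Most proteasome subunit transcripts were higher with 4-OI, each by a small amount. Of the 34 genes that could be tested, 29 were higher and 1, Psmd8, was lower, by edgeR's quasi-likelihood test with p adjusted by Benjamini-Hochberg over 13531 genes and a threshold of 0.05. Of those 13531 genes 38.8% were called, 19.3% higher and 19.6% lower, and among the 5068 genes within the same range of DMSO levels 21.1% were higher and 29.2% lower. For the 34 genes the median log2 fold change was 0.16, or 1.12-fold, against 0.00 for all genes tested. No subunit gene changed by 1.5-fold or more, and 30 of the 34 changed by less than 1.2-fold. Psmd11, Psma5, Psmd5 and Psmb3 were the 4 beyond 1.2-fold, all higher.

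Each of the 29 higher genes had all 4 libraries with 4-OI above all 4 with DMSO, a separation found in 17.4% of all genes tested, and Psmd8 had all 4 below, as did 18.0%. Counts of the tested genes ranged from 856 (Psmd9) to 17285 (Psmd2) per library, far above the filter on low counts. Replicates lay close together, with a median coefficient of variation of 2.01% with 4-OI and 2.24% with DMSO. Reads of the 36 genes made up 0.714% ± 0.00292 of all counts with 4-OI and 0.620% ± 0.00855 with DMSO (SD, n = 4). CPM is a share of a library's reads, so more RNA of a gene and less of other RNA cannot be told apart. Each library holds RNA of many cells together, so more RNA of a gene per cell and more cells with a high level cannot be told apart either.

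**Figure D1:**
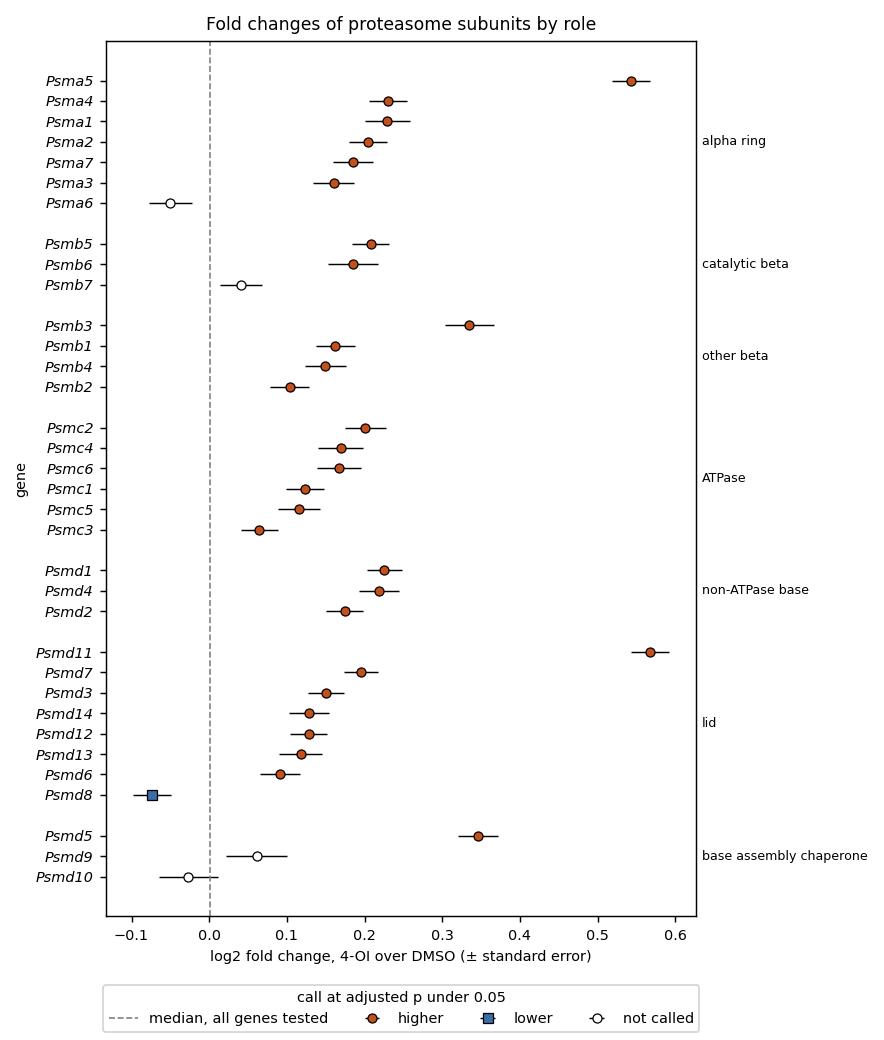
Log2 fold change of 4-OI over DMSO with its standard error for each of the 34 tested genes, grouped by role (one row per gene); filled circles were called higher, the square lower and open circles were not called at an adjusted p under 0.05, and the dashed line is the median of all genes tested. Psmd11 (0.57) and Psma5 (0.54) lie apart from the other subunits, and 3 of the 34 lie left of 0.

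In the alpha ring, the gate of the core particle, 6 of 7 tested genes were higher. Psma5 (GRCm38 chromosome 3, 108256926 to 108279974) had 278, 281, 277 and 290.4 CPM with 4-OI, against 196, 193, 188 and 197 CPM with DMSO. The groups were far apart, and the log2 change was 0.54 (SE 0.02, edgeR adjusted p = 6.67e-13). Psma4 (chromosome 9, 54950790 to 54958030) had 170.4, 172, 171 and 180.0 CPM with 4-OI, against 150.1, 146, 147 and 148 CPM with DMSO.

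Psma4 rose by a log2 change of 0.23 (edgeR adjusted p = 3.58e-07), with 4-OI replicate 4 standing above the other 3. Psma1 (chromosome 7, 114264606 to 114276118) had 159, 153, 154 and 166 CPM with 4-OI, against 138, 136, 132 and 133 CPM with DMSO. Its log2 fold change was also 0.23 (edgeR adjusted p = 2.44e-06). Psma2 (0.20), Psma7 (0.18) and Psma3 (0.16) were higher by less.

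Psma6 was the alpha ring gene that was not called. It had 109, 108, 108 and 116 CPM with 4-OI, against 113, 113, 114 and 116 CPM with DMSO, a log2 change of -0.05 (edgeR adjusted p = 0.164). Of its values with 4-OI, 3 lay below every DMSO value, and 4-OI replicate 4 overlapped them. Without that library the log2 fold change was -0.08 and the gene was called lower (edgeR adjusted p = 0.0184).

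The beta rings hold the catalytic sites. Psmb5 (chromosome 14, 54614119 to 54618022), the chymotrypsin-like subunit and the main target of proteasome inhibitor drugs, had 164, 165, 164 and 160.3 CPM with 4-OI, against 137, 142, 143 and 144 CPM with DMSO. The groups did not overlap, and the log2 change was 0.21 (SE 0.02, edgeR adjusted p = 8.6e-07). Psmb6 (chromosome 11, 70525367 to 70527858), the caspase-like subunit, had 139, 139, 133 and 136 CPM with 4-OI, against 115, 123, 115 and 127 CPM with DMSO.

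Psmb6 rose by a log2 change of 0.19 (edgeR adjusted p = 0.000112). Psmb7 (chromosome 2, 38588036 to 38644087), the trypsin-like subunit, had 201, 198, 197 and 207 CPM with 4-OI, against 192, 188, 197 and 204 CPM with DMSO. These values overlapped, and its log2 fold change of 0.04 did not pass (edgeR adjusted p = 0.255). Exons of Psmb7 overlap those of Nek6 on the opposite strand, which had a mean count of 1519 beside 5456 for Psmb7, and as no source states whether the counting used strand, reads of these genes may not be told apart.

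All 4 beta subunits without a catalytic site were higher. Psmb3 (chromosome 11, 97703399 to 97713500) led them with 121, 120.3, 123 and 124 CPM with 4-OI, against 95.5, 93.4, 93.8 and 104 CPM with DMSO. DMSO replicate 4 was the highest of its group but remained below every 4-OI library, and the log2 change was 0.33 (SE 0.03, edgeR adjusted p = 5.37e-08). Psmb1 (0.16), Psmb4 (0.15) and Psmb2 (0.10) were higher by less. No core gene was called lower by edgeR, none at an unadjusted p under 0.05, and none by DESeq2 or by limma on TPM or FPKM.

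The tissue-restricted core genes had few or no reads. Psma8 had a count of 0 in all 8 libraries, which allows at most 0.131 CPM in any of them at 3 counts. Psmb11 had counts of 0, 0, 1 and 1 with 4-OI, against 3, 1, 1 and 1 with DMSO, too few for a test. Such limits cover counting error only.

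**Figure D2:**
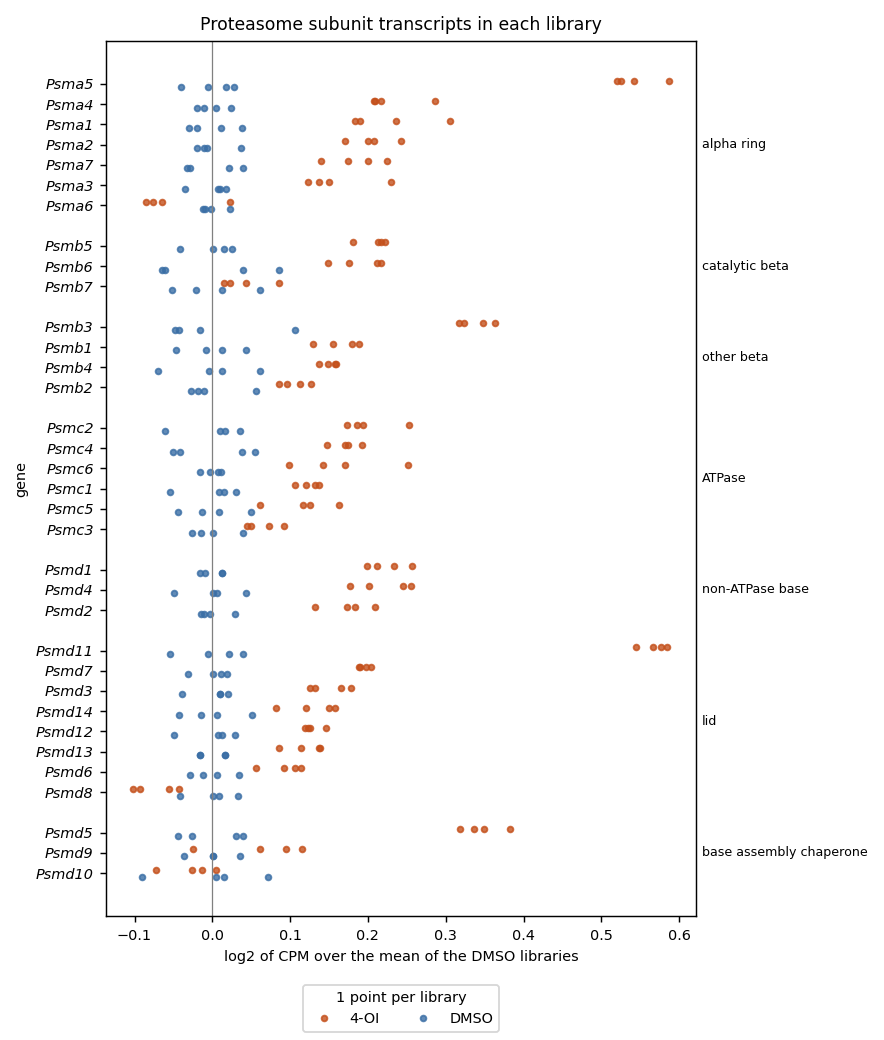
Level of each tested gene in every library, as log2 of CPM over the mean of the DMSO libraries (horizontal axis), with genes grouped by role; orange points are the 4 libraries with 4-OI and blue points the 4 with DMSO. The colours are apart in 30 genes and mix in Psma6, Psmb7, Psmd9 and Psmd10.

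In the base of the regulatory particle all 9 genes were higher. The ATPases that thread the substrate into the core spanned log2 fold changes of 0.06 (Psmc3) to 0.20 (Psmc2), with Psmc4 and Psmc6 at 0.17 each, Psmc1 and Psmc5 at 0.12 each. Psmc3 was the weakest of the higher genes (edgeR adjusted p = 0.0374). Its call ended in 10 of 18 alternative analyses, among them the removal of any 1 of 6 libraries (edgeR adjusted p = 0.058 to 0.118), and its exons overlap those of Slc39a13 on the opposite strand, which had a mean count of 2840.5 beside 6362 for Psmc3.

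Psmd1 (chromosome 1, 86064387 to 86139151), a scaffold of the base, had 388, 379, 382 and 394 CPM with 4-OI, against 333, 327, 328 and 333 CPM with DMSO. Its log2 change was 0.23 (SE 0.02, edgeR adjusted p = 1.29e-07). Psmd4 (chromosome 3, 95032694 to 95042614), a receptor for ubiquitin chains, had 269, 267, 259 and 255 CPM with 4-OI, against 226, 227, 218 and 233 CPM with DMSO. Its log2 fold change was 0.22 (edgeR adjusted p = 1.18e-06), and the groups did not overlap. Psmd2, the other large scaffold, had a log2 fold change of 0.17.

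The lid had the largest rise and the only fall. Psmd11 (chromosome 11, 80428615 to 80473248), a lid subunit that clamps the regulatory particle to the core, had 239, 243, 246 and 244 CPM with 4-OI, against 163, 168, 158 and 166 CPM with DMSO. This was a 1.48-fold rise, a log2 change of 0.57 (SE 0.02, edgeR adjusted p = 3.63e-13). It stood 387th from the top among the fold changes of all genes tested, and Psma5 stood 420th. Psmd7 (0.20), Psmd3 (0.15), Psmd14, the deubiquitinase of the lid (0.13), Psmd12 (0.13), Psmd13 (0.12) and Psmd6 (0.09) were also higher. Exons of Psmd13 overlap those of Sirt3 on the opposite strand, with a mean count of 158 beside 2142.

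Psmd8 (chromosome 7, 29174188 to 29180701) had 171, 176, 172 and 178 CPM with 4-OI, against 178, 187, 184 and 183 CPM with DMSO. The highest 4-OI value and the lowest DMSO value were nearly equal, and the log2 change of -0.07 was called lower (edgeR adjusted p = 0.0234). The call ended in 9 of 18 alternative analyses: with scaling by library totals (adjusted p = 0.0783), without the filter (0.111), with limma on TPM or FPKM (0.0628 to 0.109), and on leaving out 4-OI replicate 1, 4-OI replicate 3, DMSO replicate 2 or DMSO replicate 4 (0.0536 to 0.0866 by edgeR).

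Of the 3 base assembly chaperones, 1 was called, Psmd5. Psmd5 (chromosome 2, 34849734 to 34874968) had 178, 186, 179.9 and 182 CPM with 4-OI, against 140.0, 146, 138 and 146 CPM with DMSO, a log2 change of 0.35 (edgeR adjusted p = 1.58e-09). Psmd9 had 37.9 to 41.7 CPM with 4-OI and 37.6 to 39.5 CPM with DMSO (log2 fold change 0.06, edgeR adjusted p = 0.235). Psmd10 had 43.5 to 45.9 CPM with 4-OI and 43.0 to 48.1 CPM with DMSO (log2 fold change -0.03, edgeR adjusted p = 0.612). Both overlapped between the groups. Whether Psmd5 differs from the other chaperones in its response was not tested.

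Genes of both particles were higher. In the core this held for 12 of 14 tested genes, whose median log2 fold change was 0.18, and none was lower. In the regulatory particle it held for 17 of 20, with 1 lower and a median of 0.14. Without the 3 assembly chaperones the regulatory particle had 16 of 17 higher and a median of 0.15. The mean level of the core genes, as log2 of CPM over the DMSO mean, was 0.18, 0.19, 0.18 and 0.22 in the 4-OI libraries, against -0.02, -0.01, -0.01 and 0.04 in the DMSO libraries. For the regulatory genes it was 0.15, 0.16, 0.16 and 0.16 with 4-OI, against 0.00, 0.01, -0.03 and 0.02 with DMSO.

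Both particles' means separated the groups. The difference between them, core minus regulatory, was 0.03, 0.03, 0.02 and 0.06 with 4-OI, against -0.02, -0.02, 0.01 and 0.03 with DMSO. These values overlapped, since DMSO replicate 4 lay above 4-OI replicate 3. Their mean was 0.0349 ± 0.0188 with 4-OI and 0 ± 0.0231 with DMSO (SD, n = 4 each). The median fold changes of the particles differed by 0.05 (log2). Without DMSO replicate 1 this difference of medians was 0.02, and without DMSO replicate 4 it was 0.06.

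**Figure D3:**
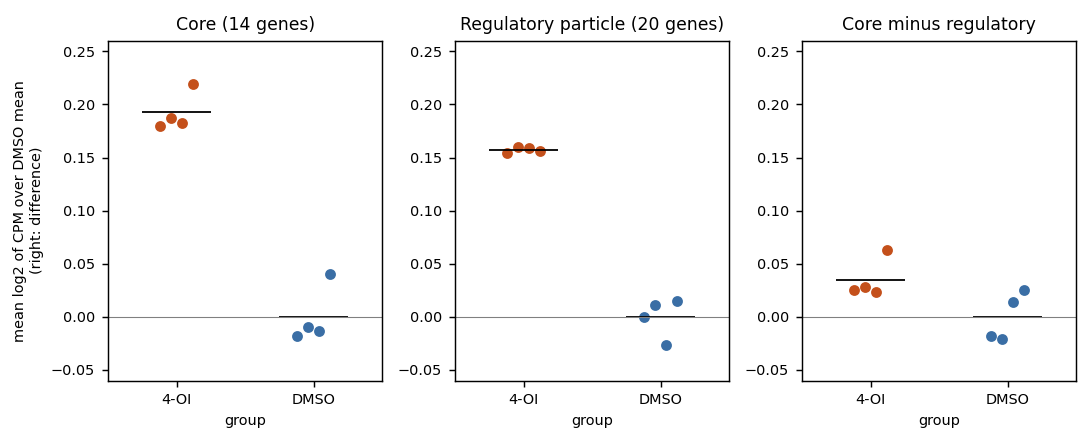
Mean over genes of log2 CPM relative to the DMSO mean, for the 14 tested core genes (left), the 20 regulatory genes (middle) and their difference (right); each point is a library and each bar the mean of 4. Core and regulatory values lie between 0.15 and 0.22 with 4-OI and between -0.03 and 0.04 with DMSO, while the differences of the groups overlap.

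Levels of different genes were compared in TPM, the authors' values per transcript length. The 34 genes covered a wide range, with the assembly chaperones Psmd5, Psmd10 and Psmd9 lowest. Without these chaperones, the lowest gene was Psmd13 (85.7 TPM with 4-OI and 78.4 TPM with DMSO). Levels of the remaining genes still differed, although the finished complex holds its subunits in equal numbers. Psma7 was highest in every library (734 ± 17.8 TPM with 4-OI and 641 ± 15.2 TPM with DMSO, SD, n = 4), followed by the ATPase gene Psmc1 (533 ± 17.4 TPM with 4-OI and 502 ± 8.46 TPM with DMSO). The median core gene was at 356 TPM with 4-OI and 296 TPM with DMSO, and the median regulatory gene at 199 TPM with 4-OI and 177 TPM with DMSO. Psma2, at 99.7 ± 5.61 TPM with 4-OI and 83.7 ± 2.12 TPM with DMSO, was the lowest of the expressed core genes.

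The assembly chaperones closed the order. Psmd5 had 78.6 ± 7.14 TPM with 4-OI and 62.3 ± 2.34 TPM with DMSO, Psmd10 55.0 ± 1.17 TPM with 4-OI and 55.6 ± 2.29 TPM with DMSO, and Psmd9 24.8 ± 1.52 TPM with 4-OI and 24.5 ± 0.818 TPM with DMSO. The 3 catalytic genes were close to each other with DMSO: Psmb6 had 334 ± 14.0 TPM, Psmb5 323 ± 6.26 TPM and Psmb7 310 ± 9.39 TPM, steps close to their standard deviations. With 4-OI, Psmb6 and Psmb5 stood at 382 ± 12.1 and 376 ± 9.96 TPM and did not differ beyond their spread, while Psmb7 stood lower at 321 ± 5.49 TPM. Psma5 was 4th of the 34 with 4-OI (413 ± 5.51 TPM) and 12th with DMSO (281 ± 5.59 TPM), while Psmd11 was 26th with 4-OI and 28th with DMSO.

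**Figure D4:**
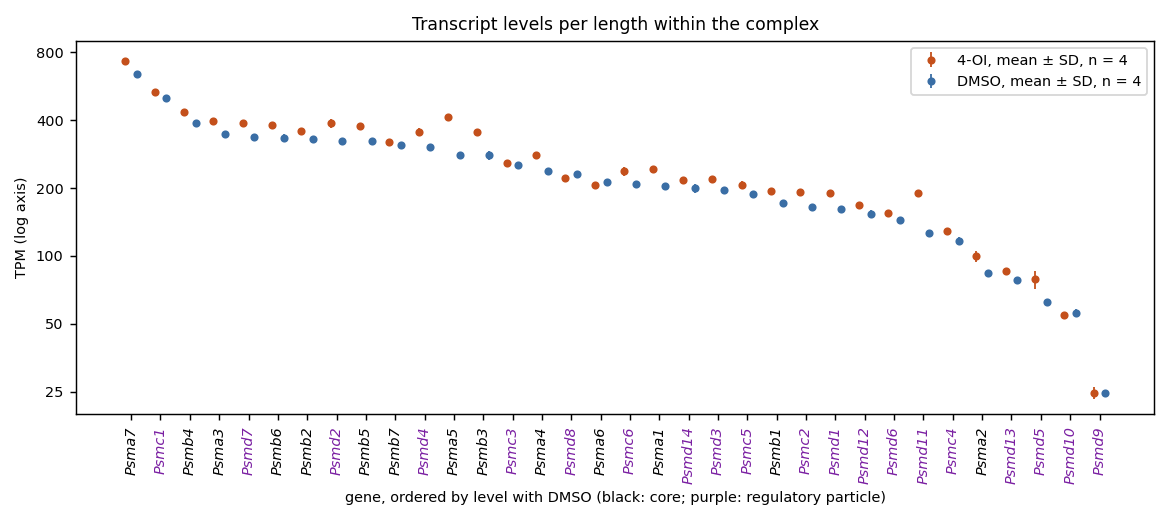
TPM (log axis) of the 34 tested genes in order of their level with DMSO; points are means and bars standard deviations of 4 libraries, orange for 4-OI and blue for DMSO, with core genes named in black and regulatory genes in purple. Levels run from Psma7 (734 TPM with 4-OI, 641 with DMSO) down to Psmd9 (24.8 with 4-OI, 24.5 with DMSO), and the gap between the groups is widest at Psma5 and Psmd11.

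Promoter sequences from RefSeq (GRCm38.p6), 250 bases before to 50 after the start, matched 29 of the 36 genes. They are shown because NRF1 and NRF2 bind, with small MAF proteins, the antioxidant response element, whose core is TGACNNNGC. On either strand this motif was in 5 of the 29 genes (17.2%) and in 3781 of 27025 genes with a promoter in the table (14.0%). The 5 matches are printed 5′ to 3′ with the motif in capitals and up to 20 bases on each side before the start. The match in Psmb5 begins 47 bases before the start, that in Psmb6 9 bases before it and that in Psmd9 31 bases before it, while those in Psmc6 (227 bases before) and Psmd12 (at position -247) read on the opposite strand.
Psmb5, chr14:54618014-54618062, minus strand: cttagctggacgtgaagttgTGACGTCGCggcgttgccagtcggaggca
Psmb6, chr11:70525328-70525356, plus strand: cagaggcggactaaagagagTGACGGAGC
Psmd9, chr5:123228139-123228187, plus strand: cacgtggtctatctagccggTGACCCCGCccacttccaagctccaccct
Psmc6, chr14:45329577-45329625, plus strand: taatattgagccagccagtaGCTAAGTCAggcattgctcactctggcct
Psmd12, chr11:107479278-107479309, plus strand: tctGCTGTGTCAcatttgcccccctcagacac

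Of these 5 genes, 4 were higher with 4-OI and the median log2 fold change was 0.17, and of the 23 tested genes with a promoter and no match 20 were higher, also with a median of 0.17. Psmd11 and Psma5, with the largest rises, were among the 23. The 250 bases before the start of Psmd11 and of Psma5 held no TGACNNNGC and no CCAAT, and they are printed in lower case because no motif that was searched lies in them. The motif CCAAT, bound by NF-Y, was in 12 of the 29 genes (41.4%) and in 41.1% of all genes. TGACTCA, which overlaps the antioxidant motif where GC follows it, was in 1 of 29 (3.45%), Psmd9, and in 5.95% of all genes. A match or its absence in this window is a description only.
Psmd11, chr11:80428365-80428614, plus strand: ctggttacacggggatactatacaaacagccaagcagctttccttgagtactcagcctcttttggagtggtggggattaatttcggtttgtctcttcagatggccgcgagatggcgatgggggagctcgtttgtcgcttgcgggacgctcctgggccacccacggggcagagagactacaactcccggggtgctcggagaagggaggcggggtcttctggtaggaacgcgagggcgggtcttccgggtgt
Psma5, chr3:108256676-108256925, plus strand: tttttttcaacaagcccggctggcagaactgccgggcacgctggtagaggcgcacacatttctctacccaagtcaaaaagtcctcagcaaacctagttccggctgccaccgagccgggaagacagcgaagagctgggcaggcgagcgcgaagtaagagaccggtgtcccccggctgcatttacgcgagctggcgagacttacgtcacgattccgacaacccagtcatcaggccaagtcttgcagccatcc

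Genes for alternative parts of the complex changed in both directions, where edgeR called 19.3% of all genes tested higher and 19.6% lower. Of 5 activator and inhibitor genes, 2 were lower, 1 was higher and 2 were not called. Psmb10, the immunoproteasome counterpart of Psmb7, had 23.6, 22.8, 19.5 and 20.9 CPM with 4-OI, against 28.4, 27.1, 28.1 and 29.7 CPM with DMSO, a log2 change of -0.39 (edgeR adjusted p = 1.22e-05). Psmb8 and Psmb9 had at most 8 counts in any library and were not tested. Psme1 and Psme2, which encode an interferon-inducible activator cap, were lower by log2 fold changes of -0.29 and -0.18. In each, every library with 4-OI lay below every DMSO library, as in 18.0% of all genes tested. For Psme2 the nearest values were almost equal, 39.5 CPM in 4-OI replicate 4 and 39.6 CPM in DMSO replicate 1.

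Psme4, which encodes another activator that opens the core, was higher, at 253, 244, 249 and 250.2 CPM with 4-OI, against 193, 191, 197 and 197 CPM with DMSO (log2 fold change 0.36, edgeR adjusted p = 1.77e-10). Psme3 (-0.04) and the inhibitor Psmf1 (0.11, edgeR adjusted p = 0.052) were not called. Among other proteins of the regulatory particle, 3 of 6 were higher by edgeR, where 19.3% of all genes tested were. They were Ecpas, which binds the complex under stress (0.22), the ubiquitin receptor Adrm1 (0.13) and the deubiquitinase Usp14 (0.10). Limma on TPM gave 2 of the 6. Usp14 overlapped between the groups, with 186 CPM in 4-OI replicate 2 and 187 CPM in DMSO replicate 1. Sem1 (0.00), Uchl5 (0.02) and the ligase Ube3c (0.05) were not called.

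Apart from the Psmd genes above, 5 genes of proteasome assembly were tested. For scale, edgeR called 38.8% of all genes tested in either direction. None of them was called by edgeR, none at an unadjusted p under 0.05, and none by DESeq2 or limma: Pomp, the maturation factor of the core, had 101 ± 3.29 CPM with 4-OI and 100.5 ± 3.08 CPM with DMSO (SD, n = 4), and Psmg1 (-0.08), Psmg2 (0.05), Psmg3 (0.08) and Psmg4 (0.06) were also uncalled. Paaf1 was not analysed here. Of the shuttle factors that carry substrates to the proteasome, Rad23b (0.03), Ubqln1 (0.04), Ubqln2 (0.03), Ubqln4 (-0.02) and Ddi2 (0.00) were not called by the same tests.

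VCP, the ATPase that extracts proteins for degradation, and its cofactors were higher in 6 of 8 genes by edgeR. DESeq2 and limma on TPM or FPKM gave 5 each. By edgeR, 19.3% of all genes tested were higher. Vcp had 1104, 1111, 1115 and 1100.2 CPM with 4-OI, against 952, 959.5, 943 and 951 CPM with DMSO, a log2 change of 0.22 (edgeR adjusted p = 1.08e-07). Ubxn4 had the largest change of this list (0.34), ahead of Vcp. Ubxn1 (0.16), Nploc4 (0.10), Nsfl1c (0.09) and Faf1 (0.08, edgeR adjusted p = 0.0426) were higher by less, while Ufd1 and Faf2 were not called.

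The transcript of the proteasome regulator NRF1 itself was not called. Nfe2l1 had 379, 384, 387 and 369 CPM with 4-OI, against 374, 389, 411 and 382 CPM with DMSO, a log2 change of -0.03 (edgeR adjusted p = 0.386). For scale in this and the next lists, edgeR called 19.3% of all genes tested higher and 19.6% lower. Of the genes that process or modify NRF1, Vcp and Ogt (0.10) were higher, and Ddi2 (0.00), Ngly1 (0.08) and Hcfc1 (0.03) were not called. DESeq2 also gave 2 higher genes of these 6, Nfe2l1 included, and limma on TPM or FPKM gave 1. Among NRF2 and its regulators, Mafg, a small MAF partner (0.45), the repressor Bach1 (0.38) and Keap1 (0.18) were higher and Nfe2l2 (-0.13) lower, and Cul3, Rbx1, Maff and Mafk were not called. All 7 NRF2 target genes listed for scale (Nqo1, Hmox1, Gclm, Gclc, Slc7a11, Txnrd1 and Srxn1) were higher, by log2 fold changes of 1.08 to 2.95, well beyond the 0.57 of Psmd11.

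Other large cytosolic complexes and chaperones were read in the same way, where 19.3% of all genes tested were higher and 19.6% lower. Of the 8 genes of the chaperonin CCT, which folds actin and tubulin, 3 were higher (Cct7 0.13, Cct3 0.13 and Cct6a 0.09) and the median log2 fold change was 0.04. DESeq2 and limma on TPM also gave 3 higher CCT genes, an unadjusted p under 0.05 gave 4 and limma on FPKM gave 5. The COP9 signalosome and translation factor eIF3 have subunits related to those of the proteasome lid. Of their 20 genes none was higher by edgeR, at an unadjusted p under 0.05, by DESeq2 or by limma. By edgeR 3 were lower (Eif3a -0.10, Eif3b -0.09 and Gps1 -0.08), a share below that over all genes tested. DESeq2 also gave 3 lower genes, and limma on TPM or FPKM gave 1. The median of these 20 genes was -0.01. Cytosolic chaperones were higher in 7 of 8 genes with a median of 0.27, led by Hsph1 (0.56), Hsp90aa1 (0.36) and Bag3 (0.34). These lists are given as counts and medians, and differences between them and the proteasome genes were not tested.

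**Figure D5:**
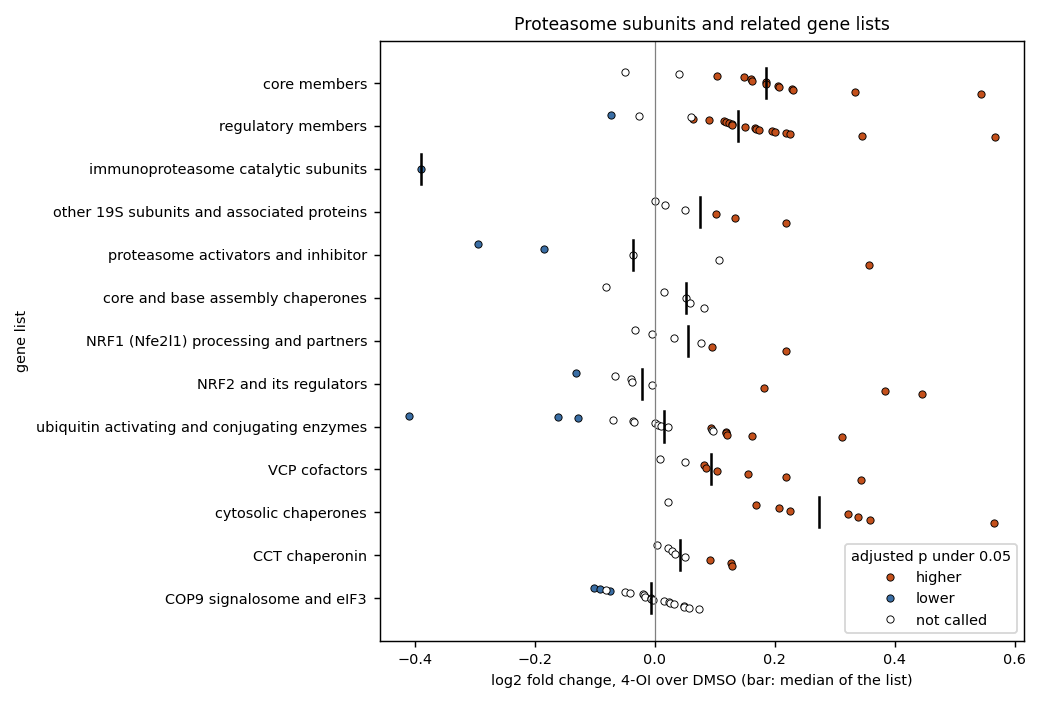
Log2 fold change of 4-OI over DMSO for each tested gene of the core, the regulatory particle and related lists (one row per list, one point per gene, vertical bar at the list's median, NRF2 targets and shuttle factors not drawn, 19S being the regulatory particle); orange was called higher, blue lower and white not called at an adjusted p under 0.05. The medians of the core (0.18) and regulatory particle (0.14) lie right of those of CCT (0.04) and of the COP9 signalosome and eIF3 (-0.01), and Psmb10, Psme1 and Psme2 lie on the left.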

How the data were processed

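Build GRCm38 and the tools RSEM 1.3.3, STAR 2.7.8a, cutadapt 2.3, MultiQC 1.7 and FastQC 0.11.8 stand, without role or order, in the record per the submitters' processing notes. Annotation and strand setting: not given in the sources used here. The authors deposited expected counts, which held whole numbers, and TPM and FPKM, both scaled by the authors for length and depth. Columns were matched to libraries by their descriptions and groups came from titles.

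Expected counts were tested with edgeR 4.0.16 (R 4.3.3): filterByExpr with a minimum count of 10, TMM, and the two-sided quasi-likelihood test of 4-OI against DMSO without covariates. CPM uses TMM-scaled library sizes. DESeq2 1.42.0, limma 3.58.1 on log2(TPM + 1), log2(TPM + 0.1) and log2(FPKM + 1), other scalings, no filter, a correction for GC content and length, a replicate block and leaving out each library were alternatives. A chi-square test of counts gave 1.90 to 4.79 per degree of freedom between libraries of 1 group, beyond sampling noise. It cannot show whether the libraries were separate cultures. Each library was counted as 1 replicate. Positions and exon overlaps came from GENCODE M21 (GRCm38). Figures were drawn with matplotlib 3.10.9. The procedure was tested on simulated data.

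Values in every library are given for the catalytic genes, up to 4 called genes with the largest change per particle and direction, and genes below the filter, and Psma6 was added after its values were seen. Lists of 6 or fewer genes are named in full and longer ones by their largest calls, and further members of longer lists were added after their values were seen. The members and lists were chosen with earlier results of these data known. A few genes of the related lists are not reported here.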

Additional observations from a re-analysis of the deposited data

Results flagged for a closer look

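Of 74 sets of 4 libraries checked (34 genes and 3 summary measures in each group), 3 had a library far from the others, and chance marks about 1 set in 20. Psma4 had 180.0 CPM in 4-OI replicate 4, against 170.4 to 172 CPM in the other 3 libraries with 4-OI. The core minus regulatory difference was 0.063 (log2) in 4-OI replicate 4, against 0.023 to 0.028 in the others with 4-OI. The mean level of the core genes was 0.041 (log2 over the DMSO mean) in DMSO replicate 4, against -0.02 to -0.01 in the other DMSO libraries.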

How the results depend on the processing

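Of 612 values of single genes under 18 alternatives, 592 kept their direction and their side of the threshold, 19 lost the call (Psmc3 and Psmd8), 1 gained it (Psma6) and none reversed; 31 of 34 genes never changed. The count of higher subunit genes was 28 or 29 in every alternative. With library totals no subunit gene was lower (0, also 0 in the regulatory particle) and the regulatory median was 0.16. Without the filter, 0 were lower in all and in the regulatory particle. With limma on TPM + 1, FPKM + 1 and TPM + 0.1, 0 subunit genes and 0 regulatory genes were lower, the lower calls over all genes numbered 1620, 1535 and 1615 (2646 in the main test), and those over the related lists together 6 in each (10 in the main test). The cause was not tested. Leaving out 1 library at a time gave 28 to 29 higher and 0 to 2 lower subunit genes, 12 higher and 0 to 1 lower core genes, 16 to 17 higher and 0 to 1 lower regulatory genes, medians of 0.17 to 0.21 (core) and 0.13 to 0.15 (regulatory), a difference of 0.023 to 0.064, 36 to 40 higher and 10 to 12 lower genes of the related lists, and 2236 to 2492 higher and 2366 to 2660 lower genes in all. Same-numbered libraries deviated together little, if at all, with correlations over 13531 genes of -0.02 to 0.07 (-0.12 to 0.04 for other pairs). 4-OI replicates 1 and 2 correlated best with the DMSO library of their own number (0.069 and 0.070), and 4-OI replicates 3 and 4 with other numbers. The replicate block gave 28 higher subunit genes, and 29 together with the GC and length correction. Protein sequences were not compared here. At these depths Psma8 and Psmb11, of the 36 genes, and Psmb8, Psmb9 and Ddi1, of the related lists, were too low for the test, as were most cell type markers.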

Other observations

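Of 18 tested genes for enzymes that activate and conjugate ubiquitin, 6 were higher and 3 lower, where 19.3% of all genes tested were higher and 19.6% lower, so the lower calls were close to the share over all genes. Ube2a (0.31), Ube2h (0.16), Ube2r2 (0.12), Ube2b (0.12), Ube2k (0.12) and Uba1, the main activating enzyme (0.09), were higher. Ube2b overlapped between the groups, with 107 CPM in 4-OI replicate 2 and 109 CPM in DMSO replicate 3. Ube2c (-0.41) and Ube2s (-0.16), which serve the anaphase-promoting complex in mitosis, and Ube2n (-0.13), which builds signalling chains, were lower. DESeq2 also gave 6 higher and 3 lower genes of this list. Limma gave 4 higher and 1 lower on TPM, and 6 higher and 1 lower on FPKM. The median log2 fold change of the list was 0.02.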
